A study of Mus musculus with 34 samples.

Results

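Transcript levels of 34 genes of brain endothelial and mural cells were examined in the dorsal hippocampus of mice trained in a spatial object recognition (SOR) task and of mice kept in the homecage. The list holds *Nostrin* and 33 other genes of blood vessel cells, of which 25 are used as endothelial genes and 8 as genes of mural cells, that is pericytes and smooth muscle. *Nostrin* was selected on its measured rise after training, so its values are given as a description with no test, and the list of 33 other vascular genes was set with earlier results of these data known. Each of the 34 symbols matched 1 row of the bulk RNA-seq table of 54532 genes, and all 34 passed the filter on low counts that kept 22018 genes.

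The animals were adult male C57BL/6J mice. In the SOR group, 4 mice explored an open field that contained objects at set places and were euthanized 1 h after training; 4 homecage mice formed the control group. Each mouse gave 1 RNA library of whole dorsal hippocampus, so replicates are separate animals. Total counts per library lay between 51406011 and 81525977, and levels are given as CPM, counts scaled to a common library total, for which 1 count corresponded to 0.0126 to 0.0196 CPM. Genes were compared with the quasi-likelihood test of edgeR over all 22018 genes, and p-values were adjusted with the Benjamini-Hochberg method over all of them. Calls required both a fold change above 1.4 and an adjusted p under 0.05, and 38 genes or 0.173% met both conditions.

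The endothelium of brain vessels forms the blood-brain barrier: its cells are sealed by tight junctions, carry few caveolae and express transporters for glucose, monocarboxylates and lipids. Pericytes sit on capillaries and help to keep this barrier, whereas smooth muscle cells wrap arterioles and set blood flow. NOSTRIN is an adaptor protein that binds endothelial nitric oxide synthase (eNOS), the enzyme that makes the vasodilator nitric oxide in endothelium, and takes part in its trafficking away from the plasma membrane.

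*Nostrin* (ENSMUSG00000034738, chromosome 2, 69135800 to 69189330 of GRCm38, plus strand) had the largest fold change of the 34 genes. Its level in the homecage mice was 1.58, 1.18, 2.03 and 1.81 CPM, and in the SOR mice 4.14, 3.19, 3.46 and 3.02 CPM. The lowest SOR mouse was therefore above the highest homecage mouse. The mean was 1.65 ± 0.365 CPM in the homecage and 3.45 ± 0.493 CPM after SOR training (SD, n = 4 each), a log2 fold change of 1.07 with a standard error of 0.18. Leaving out each of the 8 mice in turn gave log2 fold changes between 0.94 and 1.18. Among all genes tested, *Nostrin* held rank 100 of 22018 by log2 fold change, and rank 50 of the 16352 genes whose mean reached 1 CPM. The libraries held between 84 and 308 *Nostrin* counts each, so its level was low but well above single counts. Its RefSeq promoter window, 250 bases before to 50 bases after the start site, is shown because this gene carries the largest change, with capitals for matches to the ETS motif described with the other promoters.
Nostrin, chr2:69135550-69135849, plus strand: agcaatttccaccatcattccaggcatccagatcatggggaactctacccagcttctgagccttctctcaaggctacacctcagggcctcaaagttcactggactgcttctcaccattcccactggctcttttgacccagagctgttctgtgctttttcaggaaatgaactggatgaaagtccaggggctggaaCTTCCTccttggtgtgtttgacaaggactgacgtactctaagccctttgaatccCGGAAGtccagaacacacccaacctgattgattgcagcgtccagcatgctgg

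**Figure D1:**
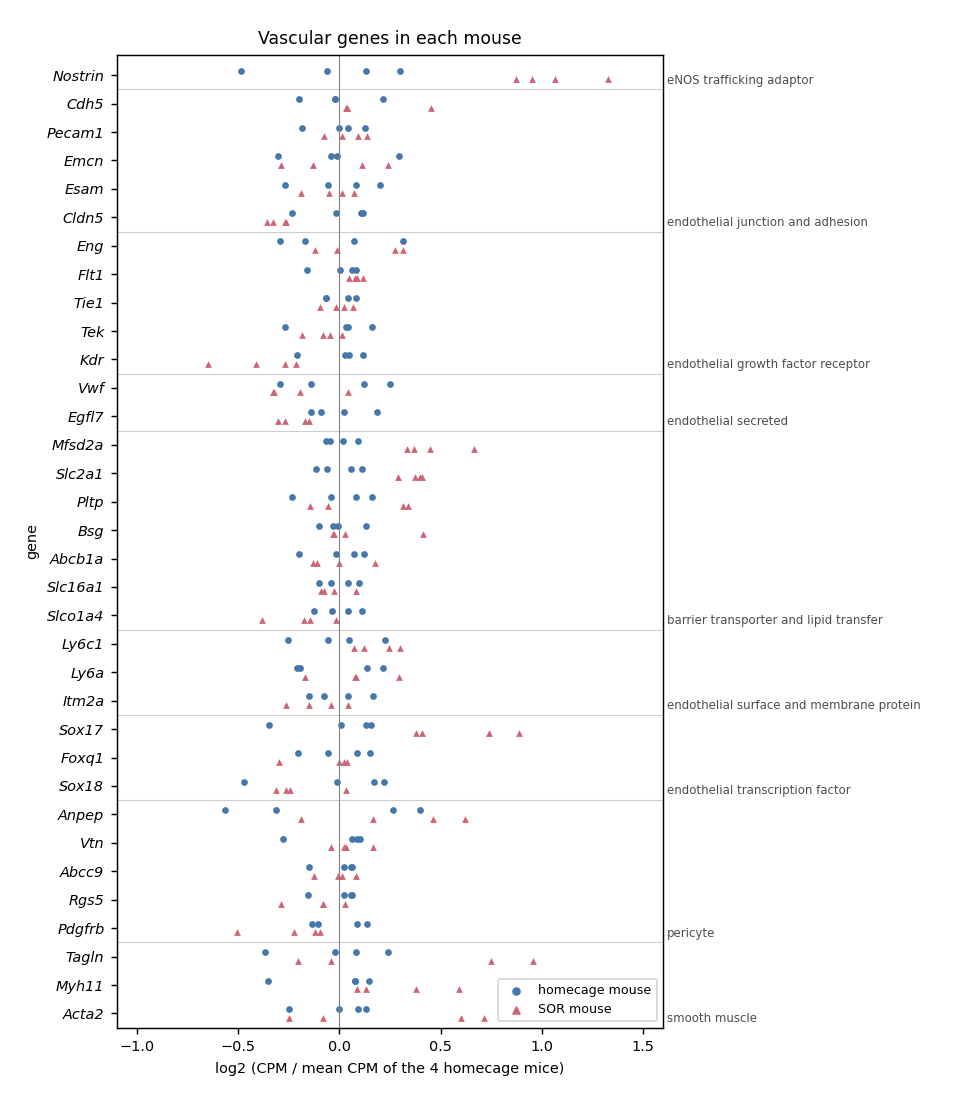
Level of each of the 34 vascular genes in each mouse, as log2 of its CPM over the mean CPM of the 4 homecage mice (horizontal axis), with genes grouped by role (vertical axis); circles are homecage mice and triangles SOR mice. The 4 SOR mice lie apart from the homecage mice to the right for *Nostrin*, *Slc2a1*, *Mfsd2a* and *Sox17* and to the left for *Cldn5*, *Kdr* and *Egfl7*, and the groups overlap for the other 27 genes.

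The other vascular genes were split between higher and lower values. Of the 33 genes, 17 had a log2 fold change above 0 and 16 below 0, and the median was 0.0015, beside a median of -0.0193 over all genes tested. At an adjusted p under 0.05, 1 of the 33 genes passed, *Slc2a1*, whose fold change of 1.29 was under 1.4, so 0 of the 33 genes were called with edgeR; 0.309% of all genes tested passed the adjusted p alone. At an unadjusted p under 0.05 there were 7 of the 33 genes, beside 10.1% of all genes tested. DESeq2 called 1 of the 33 genes, *Sox17*, beside 114 or 0.642% of the 17744 genes to which it gave an adjusted p. The 4 values of one group lay entirely above those of the other for 6 of the 33 genes (18.2%), 3 higher after training and 3 lower, beside 6.94% of all genes tested in both directions. *Tie1*, *Abcb1a* and *Abcc9*, with log2 fold changes of -0.0051, -0.0107 and -0.0075, moved to values above 0 when TMM or DESeq2 size factors replaced the upper quartile. In bulk tissue, fewer cells of a type and less RNA per cell cannot be told apart, and several of these genes, such as *Bsg*, *Slc16a1*, *Slc2a1* and *Pltp*, are also expressed by other brain cells.

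**Figure D2:**
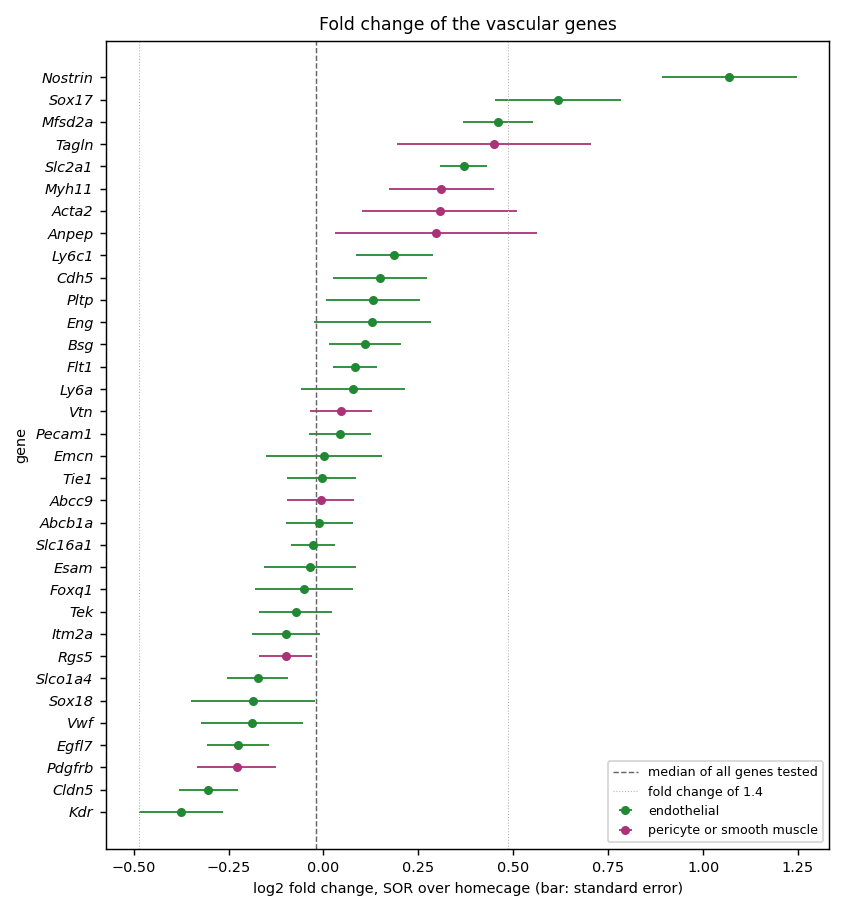
Log2 fold change of SOR over homecage for the 34 vascular genes with its standard error from the edgeR fit (horizontal axis), sorted by size (vertical axis), in green for endothelial and purple for pericyte or smooth muscle genes. The dashed line marks the median of all genes tested at -0.0193 and the dotted lines a fold change of 1.4; *Nostrin* at 1.07 and *Sox17* at 0.62 lie beyond the upper dotted line and no gene lies beyond the lower one.

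Levels of the 34 genes spanned a wide range. Per kb of exonic length, the homecage mean ran from 0.161 CPM per kb for *Anpep* to 123.7 CPM per kb for *Bsg*, with a median of 2.70 CPM per kb. *Nostrin* was near the bottom in the homecage at 0.874 CPM per kb, above only *Vwf*, *Foxq1*, *Sox17* and *Anpep*. After SOR training its mean of 1.83 CPM per kb was above that of 13 of the 33 other genes. The spread between mice, as the SD over the mean, had a median of 11.1% over the 34 genes in the homecage group and 10.7% in the SOR group. It was largest for *Anpep* in the homecage group (30.9%) and for *Tagln* in the SOR group (38.6%), and smallest for *Mfsd2a* at 5.04% and *Flt1* at 2.05%, respectively.

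Of 7 genes of transport and lipid transfer, *Slc2a1* and *Mfsd2a* were higher in every SOR mouse than in any homecage mouse. Groups that did not overlap, in either direction, were found for 6.94% of all genes tested. *Slc2a1* encodes the glucose transporter GLUT1 of the barrier endothelium, which astrocytes also express. Its level was 23.8, 22.9, 25.8 and 26.8 CPM in the homecage mice and 32.7, 32.2, 30.4 and 33.0 CPM in the SOR mice. All SOR mice were above all homecage mice, and the log2 fold change was 0.37 with a standard error of 0.062 (edgeR adjusted p = 0.0403). The adjusted p passed its threshold only with all 8 libraries: without any 1 of them it was between 0.0582 and 0.138, with a log2 fold change of 0.33 to 0.41. *Mfsd2a* encodes the transporter that brings omega-3 fatty acids across the barrier as lysophospholipids and restrains vesicle transport through the endothelium. It was measured at 8.07, 8.89, 8.44 and 7.96 CPM in the homecage mice and at 11.4, 10.5, 10.8 and 13.2 CPM in the SOR mice. The groups did not overlap, but the log2 fold change of 0.46 did not pass the adjusted threshold (SE 0.092, edgeR adjusted p = 0.0864). It passed with DESeq2 (adjusted p = 0.00023), with the likelihood ratio test of edgeR (0.0155) and with 1 to 3 RUVs factors (0.00029 to 0.00114). These were 5 of 12 alternative fits to all mice, and the edgeR adjusted p was 0.123 to 0.289 with 1 mouse left out.

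The promoter windows of *Slc2a1* and *Mfsd2a*, shown because both genes were separated in the same direction, held 2 and 4 matches to the hypoxia response core, which are in capitals. Such matches were found for 10 of the 22 vascular genes with a window, beside 43.8% of all windows. The most, 5, were in the window of *Slc16a1*, whose groups overlapped (log2 fold change -0.03).
Slc2a1, chr4:119108495-119108794, plus strand: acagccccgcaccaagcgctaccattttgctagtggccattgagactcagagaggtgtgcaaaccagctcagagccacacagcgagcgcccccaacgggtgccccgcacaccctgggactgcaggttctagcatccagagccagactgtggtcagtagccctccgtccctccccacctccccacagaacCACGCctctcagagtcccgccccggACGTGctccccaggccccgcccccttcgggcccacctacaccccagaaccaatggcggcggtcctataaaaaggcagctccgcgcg
Mfsd2a, chr4:122961139-122961438, minus strand: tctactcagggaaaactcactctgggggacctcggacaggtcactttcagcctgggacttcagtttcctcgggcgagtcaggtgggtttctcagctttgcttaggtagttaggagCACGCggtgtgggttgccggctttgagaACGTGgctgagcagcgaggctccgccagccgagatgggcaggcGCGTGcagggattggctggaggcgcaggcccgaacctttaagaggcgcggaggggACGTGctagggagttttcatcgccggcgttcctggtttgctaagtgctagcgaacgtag

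The other 5 genes of transport and lipid transfer overlapped between groups and did not pass the test. *Slc16a1* encodes the lactate and ketone carrier MCT1, *Bsg* its chaperone basigin, *Abcb1a* the drug efflux pump P-glycoprotein, *Slco1a4* an organic anion transporter and *Pltp* a phospholipid transfer protein. Their log2 fold changes ran from -0.17 for *Slco1a4* to 0.13 for *Pltp*, with edgeR adjusted p between 0.511 and 0.983. *Slc16a1* was among the steadiest genes, with 39.5 to 45.3 CPM in the homecage mice and 39.7 to 44.9 CPM in the SOR mice. *Bsg* was at 299.0 CPM in SOR mouse 1 and at 219.7, 220.6 and 228.3 CPM in the other SOR mice, beside 209.2 to 245.5 CPM in the homecage mice. The summed level of 8 choroid plexus markers was also highest in SOR mouse 1, at 4038 CPM, beside 25.8 to 1108 CPM in the other 7 mice; its part in the *Bsg* value was not tested. *Abcb1a* and *Slco1a4* have close paralogs between which reads could be divided, and *Pltp* overlaps *Ctsa* on the opposite strand.

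Junction and adhesion genes overlapped between groups except for *Cldn5*. *Cldn5* encodes claudin-5, the main tight junction protein of the barrier. Its level was 29.9, 23.5, 30.0 and 27.4 CPM in the homecage mice and 23.1, 23.0, 21.6 and 22.1 CPM in the SOR mice. The SOR mice were all below the homecage mice, by a narrow gap to homecage mouse 2. The log2 fold change of -0.30 (SE 0.079) did not pass the test (edgeR adjusted p = 0.199), while DESeq2 gave an adjusted p of 0.0482 and the fit with 2 RUVs factors 0.0406. Only these 2 of 12 alternative fits to all mice passed, and the edgeR adjusted p was 0.0826 to 0.428 with 1 mouse left out. *Cdh5*, the adherens junction protein VE-cadherin, was at 8.41, 8.41, 7.44 and 9.92 CPM in the homecage and at 8.78, 8.74, 8.77 and 11.7 CPM after training. These groups overlapped, and its log2 fold change was 0.15 (edgeR adjusted p = 0.746). *Pecam1*, *Esam* and *Emcn*, which encode the adhesion proteins CD31 and ESAM and the sialomucin endomucin, had log2 fold changes of 0.04, -0.03 and 0.0015 with edgeR adjusted p from 0.904 to 0.9995.

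Of the 5 growth factor receptors, 2 had a log2 fold change above 0 and 3 below 0, and 0 passed the adjusted threshold of edgeR. An unadjusted p under 0.05 was found for 1, *Kdr*, beside 10.1% of all genes tested. *Kdr* encodes VEGFR2, the main signaling receptor for vascular endothelial growth factor (VEGF). It was at 13.01, 10.89, 12.85 and 13.68 CPM in the homecage mice and at 10.88, 10.47, 9.46 and 8.03 CPM in the SOR mice. The highest SOR value of 10.88 CPM lay just below the lowest homecage value of 10.89 CPM, so the separation was minimal. Its log2 fold change was -0.38 (SE 0.11, edgeR adjusted p = 0.266). The adjusted p was 0.0134, 0.00892 and 0.00968 with 1, 2 and 3 RUVs factors, which were fitted with a likelihood ratio test. It was 0.0685 with DESeq2, 0.194 with the likelihood ratio test alone and 0.22 to 0.539 in edgeR with 1 mouse left out. The decoy VEGF receptor *Flt1* differed by 0.08 on the log2 scale, with 31.9 to 37.7 CPM in the homecage and 36.8 to 38.7 CPM after training. The angiopoietin receptor *Tek*, its relative *Tie1* and the TGF-beta coreceptor *Eng* had log2 fold changes of -0.07, -0.0051 and 0.13. These 4 receptors had edgeR adjusted p between 0.684 and 0.995. Windows of *Cldn5* and *Kdr* are shown as the promoters of the separated genes on the lower side that have a single window (*Egfl7* has 3, with 3, 2 and 0 ETS and 0, 0 and 1 hypoxia response core matches), with the 2 hypoxia response core matches of *Kdr* in capitals and no match for either motif in *Cldn5*.
Cldn5, chr16:18776597-18776896, plus strand: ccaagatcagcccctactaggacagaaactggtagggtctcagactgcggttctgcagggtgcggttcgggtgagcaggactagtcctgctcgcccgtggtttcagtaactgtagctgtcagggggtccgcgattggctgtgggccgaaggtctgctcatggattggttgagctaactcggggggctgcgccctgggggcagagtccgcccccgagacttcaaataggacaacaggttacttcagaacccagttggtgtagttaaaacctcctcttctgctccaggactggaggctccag
Kdr, chr5:75978406-75978705, minus strand: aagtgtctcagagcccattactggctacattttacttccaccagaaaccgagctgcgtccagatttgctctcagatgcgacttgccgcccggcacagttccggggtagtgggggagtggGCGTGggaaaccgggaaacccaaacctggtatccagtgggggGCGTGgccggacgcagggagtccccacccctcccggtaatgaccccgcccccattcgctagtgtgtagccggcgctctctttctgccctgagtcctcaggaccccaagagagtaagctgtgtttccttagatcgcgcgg

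**Figure D3:**
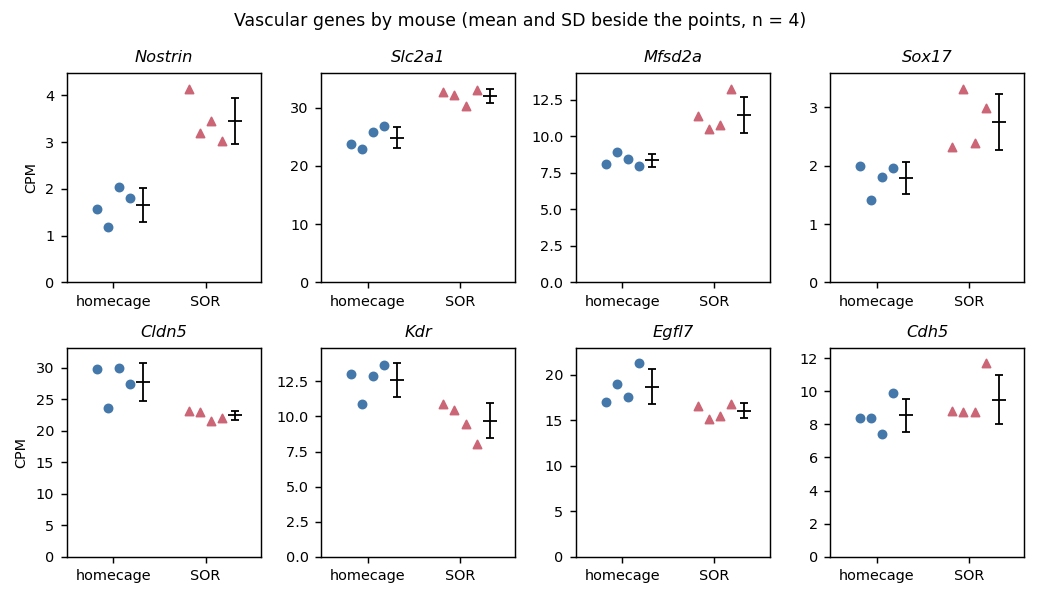
CPM of 8 vascular genes in each mouse (vertical axis, starting at 0) by group (horizontal axis), with the mean and SD of the 4 mice beside the points. The 4 SOR mice lie above the homecage mice for *Nostrin*, *Slc2a1*, *Mfsd2a* and *Sox17* and below them for *Cldn5*, *Kdr* and *Egfl7*; *Cdh5* is shown as an overlapping junction gene, with SOR mouse 4 at 11.7 CPM.

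*Sox17* was the transcription factor gene with the largest difference. SOX17 and SOX18 are endothelial SoxF factors that act in arterial and vessel development, and FOXQ1 is a forkhead factor of brain endothelium. *Sox17* was at 1.998, 1.404, 1.802 and 1.958 CPM in the homecage mice and at 2.33, 3.31, 2.38 and 2.99 CPM in the SOR mice. The SOR mice were all above the homecage mice, at a low level of 100 to 184 counts per library. The log2 fold change of 0.62 (SE 0.17) was second in size to that of *Nostrin* and did not pass the test (edgeR adjusted p = 0.213), but DESeq2 gave 0.0269 and the fit with 2 RUVs factors 0.0404. Only these 2 of 12 alternative fits to all mice passed, and the edgeR adjusted p was 0.2 to 0.462 with 1 mouse left out. *Sox18* and *Foxq1* overlapped between groups, with log2 fold changes of -0.19 and -0.05 and edgeR adjusted p of 0.765 and 0.933.

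Secreted and surface proteins showed no call. *Egfl7* encodes an angiogenic secreted protein and hosts the microRNA miR-126 in its locus. It was at 17.0, 19.0, 17.5 and 21.3 CPM in the homecage mice and at 16.6, 15.2, 15.5 and 16.8 CPM in the SOR mice. All SOR mice were below all homecage mice, with a log2 fold change of -0.22 (SE 0.082, edgeR adjusted p = 0.392). The clotting protein gene *Vwf* had a log2 fold change of -0.19 and overlapping groups. The surface proteins *Ly6c1* and *Ly6a* and the membrane protein *Itm2a* differed by 0.19, 0.08 and -0.10 on the log2 scale, with edgeR adjusted p between 0.580 and 0.895. *Ly6c1* and *Ly6a* belong to a family of close copies, so their counts are uncertain.

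Mural genes had a median log2 fold change of 0.17 over 8 genes, 5 above 0 and 3 below 0, and 0 of them passed the test or had groups that did not overlap. An unadjusted p under 0.05 was found for 1 of the 8, beside 10.1% of all genes tested. The 3 smooth muscle genes carried the higher values. *Acta2*, which encodes smooth muscle actin, was at 7.32, 5.62, 7.10 and 6.67 CPM in the homecage mice and at 10.1, 5.62, 6.31 and 10.9 CPM in the SOR mice. *Tagln*, which encodes the actin-binding protein transgelin, was at 2.85, 1.87, 2.55 and 2.37 CPM in the homecage mice and at 4.05, 2.34, 2.09 and 4.67 CPM in the SOR mice. *Myh11*, the smooth muscle myosin heavy chain gene, was at 9.90, 7.36, 10.4 and 9.90 CPM in the homecage mice and at 12.2, 10.3, 9.97 and 14.1 CPM in the SOR mice. SOR mice 1 and 4 were the highest of the 8 mice for all 3 genes, while SOR mice 2 and 3 lay within the homecage range for each of them. The log2 fold changes were 0.31, 0.45 and 0.31, with edgeR adjusted p of 0.670, 0.605 and 0.491. Actin genes are similar in sequence, and *Tagln* overlaps *Pcsk7* on the opposite strand.

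The same SOR mice were also high for markers of red blood cells. The sum of 5 such genes, the haemoglobin genes *Hba-a1*, *Hba-a2*, *Hbb-bs* and *Hbb-bt* and the haem synthesis gene *Alas2*, was 177.0 and 184.4 CPM in SOR mice 1 and 4, and 98.6 to 126.7 CPM in the other 6 mice. The sum of the 3 smooth muscle genes was 26.4 and 29.7 CPM in SOR mice 1 and 4, and 14.8 to 20.1 CPM in the other 6 mice. How the 2 sums relate, and the part of blood or vessel content of the dissected tissue in them, was not tested. Without SOR mice 1 and 4, a choice made after these values were seen, the mural median was -0.0177 in place of 0.17, and *Acta2* and *Tagln* turned to -0.16 and -0.12. The 2 mice were the highest for each of the 3 smooth muscle genes, so leaving them out had to lower these fold changes. The shift therefore cannot show what raised the values in these mice. The mural median was 0.0541 without homecage mouse 2, 0.0962 without SOR mouse 1 and 0.0954 without SOR mouse 4. *Slc2a1* kept a log2 fold change of 0.33 without SOR mice 1 and 4, with an edgeR adjusted p of 0.200.

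None of the 5 pericyte genes passed the test. *Pdgfrb*, the receptor that recruits pericytes, had the lowest log2 fold change of them at -0.23 (edgeR adjusted p = 0.499), with 14.4 to 17.4 CPM in the homecage mice and 11.1 to 14.8 CPM in the SOR mice. *Rgs5*, a regulator of G protein signaling and a common pericyte marker, was at 76.1 to 88.4 CPM in the homecage mice and 69.4 to 86.4 CPM in the SOR mice. The potassium channel subunit gene *Abcc9*, the matrix protein gene *Vtn* and the aminopeptidase gene *Anpep* had log2 fold changes of -0.0075, 0.05 and 0.30, the last at only 30 to 76 counts per library. All 5 genes overlapped between groups, and their summed level was 138.6 to 166.9 CPM in the homecage mice and 143.0 to 160.3 CPM in the SOR mice.

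**Figure D4:**
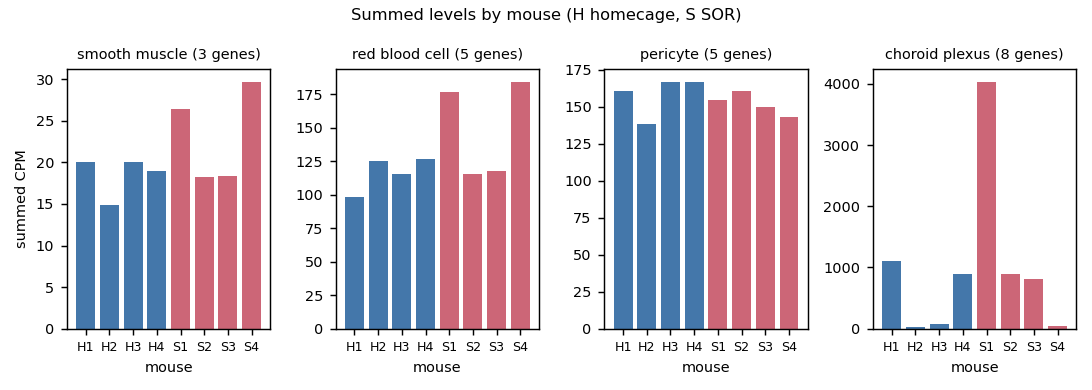
Summed CPM (vertical axis, starting at 0) of the smooth muscle genes, red blood cell markers, pericyte genes and choroid plexus markers in each mouse (horizontal axis; H1 to H4 homecage, S1 to S4 SOR). SOR mice 1 and 4 have the tallest bars for smooth muscle and red blood cell genes, SOR mouse 1 alone for choroid plexus, and the pericyte sums of the 2 groups overlap.

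To set these genes against a summed level of endothelial genes in each library, they were also expressed as a percentage of the summed CPM of the 10 junction and receptor genes. That sum was 117.8 to 140.7 CPM in the homecage mice and 125.3 to 132.2 CPM in the SOR mice, so the groups overlapped. *Nostrin* amounted to 1.127%, 1.001%, 1.5% and 1.284% of the sum in the homecage mice and to 3.21%, 2.41%, 2.76% and 2.37% in the SOR mice, a ratio of the group medians of 2.14. The same ratio was 1.31 for *Slc2a1*, 1.45 for *Mfsd2a* and 1.56 for *Sox17*, and 0.90 for *Egfl7*. For *Cldn5* and *Kdr*, which are part of the sum, each gene was left out of its own sum, and the ratio was 0.81 for each. Both stayed in the sum used for the other genes. Since both were lower in all SOR mice, they tend to raise the ratios of the other genes, by an amount that was not tested. *Egfl7* is the gene whose separation was lost on this scale, with 12.1% to 16.1% in the homecage mice and 11.5% to 13.2% in the SOR mice.

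Genes that act with NOSTRIN in the nitric oxide pathway did not pass the test. *Nos3*, which encodes eNOS itself, was at 4.90, 4.14, 4.98 and 4.10 CPM in the homecage mice and at 5.03, 4.32, 4.71 and 5.40 CPM in the SOR mice. The groups overlapped, with a log2 fold change of 0.10 (edgeR adjusted p = 0.820). *Cav1*, the caveolin that binds and holds eNOS inactive, was at 9.41, 9.73, 9.51 and 10.8 CPM in the homecage mice and at 8.96, 8.81, 8.46 and 8.11 CPM in the SOR mice. It was lower in all SOR mice, by a log2 fold change of -0.20 that did not pass the test (edgeR adjusted p = 0.439). Groups that did not overlap were found for 1 of the 18 pathway genes (5.6%), beside 6.94% of all genes tested. Of the 18 genes listed for this pathway, 8 had a log2 fold change above 0 and 10 below 0, with a median of -0.0149 and a lowest edgeR adjusted p of 0.266, that of *Cavin2*, a gene named after its value was seen.

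Further vascular genes of the same pathways gave no call either. Across 5 lists with 95 genes, of which 92 were tested, 0 genes passed an edgeR adjusted p of 0.05, while 17 had an unadjusted p under 0.05, beside 10.1% of all genes tested. The median log2 fold change was -0.0292, and 9 genes (9.8%) had groups that did not overlap, 5 higher and 4 lower after training, beside 6.94% of all genes tested. Of the VEGF, angiopoietin and other ligand and coreceptor genes, 7 were above 0 and 8 below 0, with a median of -0.0157. In the barrier Wnt pathway 7 genes were above and 7 below 0, and among other endothelial genes 15 were above and 17 below. Among other mural genes 5 were above and 8 below 0, with a median of -0.0631.

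A few of these genes are named after their values were seen. *Nrp1*, a VEGF coreceptor that neurons also express, had the lowest adjusted p of the 92 genes. It was at 124.3, 129.4, 133.2 and 127.1 CPM in the homecage mice and at 156.5, 158.4, 139.2 and 155.6 CPM in the SOR mice (log2 fold change 0.25, edgeR adjusted p = 0.0764). *Vegfa*, the ligand of the receptors encoded by *Kdr* and *Flt1*, was at 29.0, 30.0, 20.5 and 29.2 CPM in the homecage mice and at 38.4, 35.9, 39.8 and 32.6 CPM in the SOR mice. Both genes were higher in all SOR mice than in any homecage mouse, and *Vegfa* had a log2 fold change of 0.43 (edgeR adjusted p = 0.211). *Apcdd1*, an inhibitor of Wnt signaling in barrier endothelium, was at 13.3, 11.6, 13.9 and 12.9 CPM in the homecage mice and at 9.79, 10.8, 10.2 and 9.88 CPM in the SOR mice. It was lower in all SOR mice (log2 fold change -0.35, edgeR adjusted p = 0.137). *Fzd4*, the receptor of this Wnt pathway in vessels, had a log2 fold change of 0.56 (edgeR adjusted p = 0.336), with 7.12 to 10.1 CPM in the homecage mice, 18.0 CPM in SOR mouse 1 and 10.5 to 11.2 CPM in the other SOR mice.

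The genes that flank *Nostrin* on chromosome 2 had no call. Within 100 kb, the ceramide synthase gene *Cers6* had a log2 fold change of 0.03 (edgeR adjusted p = 0.901) and the antisense RNA *Gm13613* one of 0.07 (0.906). *Spc25*, which encodes a kinetochore protein and lies on the minus strand beyond the 3' end of *Nostrin*, was at 0.382, 0.351, 0.482 and 0.565 CPM in the homecage mice and at 0.256, 0.144, 0.292 and 0.314 CPM in the SOR mice. It was lower in all SOR mice at these few counts (log2 fold change -0.82, edgeR adjusted p = 0.382). *G6pc2* and *Abcb11* had at most 2 and 6 counts in a library and were not tested. No annotated gene overlaps *Nostrin* itself.

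RefSeq promoter windows of GRCm38.p6 were found for 22 of the 34 genes, each 300 bases long. The sequences were searched on both strands for ETS sites (AGGAAG or CGGAAG), the motif family of endothelial ETS factors, and for the core of the hypoxia response element (ACGTG or GCGTG). They were also searched for the AP-1 site (TGACTCA or TGAGTCA) and the cAMP response element (TGACGTCA), through which neuronal activity acts on many genes. ETS matches were found for 10 of the 22 genes, beside 46.5% of all 32851 windows, and hypoxia response core matches for 10 of the 22, beside 43.8%. A gene was counted if any of its windows matched, and *Egfl7* and *Ly6c1* have more than 1, while the shares are per window. The RefSeq start of *Abcb1a*, with an ETS match, lies 92986 bases from its GENCODE start. That of *Anpep*, with a hypoxia response core match, lies 12849 bases away. AP-1 matches were found for 0 of the 22 genes, beside 5.2% of all windows, and the cAMP response element for 1 gene, *Flt1*, beside 1.79%. *Nostrin* has 2 ETS matches, at bases -56 to -51 and -2 to 4 from its start site, where base 1 is the first transcribed base. *Slc2a1* has hypoxia response core matches at -61 to -57 and -36 to -32, and the 4 matches of *Mfsd2a* begin at -135, -107, -64 and -9. The shares of vascular genes with an ETS or hypoxia response match were near those of all windows, and a match describes letters in a window and not a bound site.

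Other cell types were measured in the same libraries for reference. Sums of 6 neuron markers (4156 to 4769 CPM) and 7 astrocyte markers (3639 to 4035 CPM) were high in every library, and overlapped between groups. The sum of 8 choroid plexus markers ranged from 25.8 to 1108 CPM in the homecage mice and from 42.5 to 4038 CPM in the SOR mice, and all 8 markers had log2 fold changes above 0, with 0 past the adjusted threshold (lowest edgeR adjusted p 0.609; 0 at an unadjusted p under 0.05). All 5 red blood cell markers were above 0 (lowest edgeR adjusted p 0.457; 2 at an unadjusted p under 0.05). All 6 mature oligodendrocyte markers were below 0 (lowest edgeR adjusted p 0.164; 3 at an unadjusted p under 0.05), and the groups did not overlap for 1 of them, *Opalin*, named after its value was seen. Of 6 microglia markers 4 were below 0 (lowest edgeR adjusted p 0.276, with 2 at an unadjusted p under 0.05). Among all genes tested, 10.1% had an unadjusted p under 0.05 and 6.94% had groups that did not overlap. Meningeal fibroblast markers summed to 89.6 to 119.8 CPM in the homecage mice and 100.9 to 157.9 CPM in the SOR mice. Within the SOR group, *Nostrin* was highest in mouse 1, at 4.14 CPM, where the choroid plexus sum was highest too (4038 CPM). It was lowest in mouse 4, at 3.02 CPM, where that sum was lowest (42.5 CPM). SOR mice 2 and 3, with *Nostrin* at 3.19 and 3.46 CPM, had sums of 892.8 and 803.9 CPM. In the homecage group, *Nostrin* was highest in mouse 3, at 2.03 CPM, where the sum was 67.0 CPM. It was at 1.58 CPM in homecage mouse 1, which had the highest homecage sum (1108 CPM). Homecage mouse 4 had *Nostrin* at 1.81 CPM and a sum of 890.3 CPM, close to the sums of SOR mice 2 and 3. *Nostrin* was lowest in homecage mouse 2, at 1.18 CPM, where the sum was lowest too (25.8 CPM). The part of choroid plexus content in the *Nostrin* values was not tested.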

How the data were processed

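Dorsal hippocampus RNA from 8 mice, 4 per group by the labels, was sequenced as paired-end libraries, with a stranded total RNA kit depleted of ribosomal RNA in the study's methods and polyA RNA in the labels. The values are estimated counts per gene, 52.6% of them not whole, deposited by the authors as a table named for tximport. The methods name STAR and featureCounts within bcbio-nextgen, and the notes mm10; which quantifier made the table, whether abundances were rescaled and whether counting used strand are not given in the sources used here.

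Counts were rounded, filtered with filterByExpr, scaled by upper quartile and tested with edgeR 4.0.16 (quasi-likelihood, no covariates) in R 4.3.3, at a biological coefficient of variation of 14.1%. RUVs factors, whose number the methods do not state, were written out from the published algorithm and entered only as alternatives, with DESeq2 1.42.0, limma-voom of limma 3.58.1, other scalings and filters, a replicate block and each mouse left out; RUVs factors and a likelihood ratio test were fitted together. An adjusted p that DESeq2 gave as NA stayed NA. Levels are CPM with upper-quartile factors. Code was tested on simulated data. Positions come from GENCODE M21 and promoters from RefSeq, both on GRCm38.

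Members and lists were chosen with earlier results of these data known. All 34 members, *Nos3*, *Cav1*, further-list genes past an adjusted p of 0.05, genes within 100 kb of *Nostrin* and marker sums were named by rule. Replicates within a group differed by more than counting noise (chi-square per degree of freedom 11.8 to 54.5).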

Additional observations from a re-analysis of the deposited data

Results flagged for a closer look

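In 5 of the 68 sets of 4 values formed by the 34 genes and 2 groups, 1 mouse lay far from the other 3 by Dixon's criterion for the gap over the range, which chance gives in about 1 of 20 sets. *Cdh5* was at 11.71 CPM in SOR mouse 4 and at 8.74 to 8.78 CPM in the other SOR mice. *Bsg* was at 299.0 CPM in SOR mouse 1 and at 219.7 to 228.3 CPM in the others. *Foxq1* was at 2.196 CPM in SOR mouse 3, below 2.70 to 2.77 CPM in the others. Homecage mouse 2 was lowest for *Vtn*, at 40.55 CPM beside 51.3 to 52.8 CPM, and for *Myh11*, at 7.356 CPM beside 9.90 to 10.4 CPM.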

How the results depend on the processing

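*Nostrin* kept a log2 fold change of 0.94 to 1.18 under all 21 alternatives with a value for it. The number of genes called, 38, was 68 without a fold threshold, 105 with the likelihood ratio test, 114 with DESeq2, and 134, 191 and 203 with 1, 2 and 3 RUVs factors; it was 22 to 38 with 1 mouse left out, 22 without homecage mouse 2 and 25 without homecage mouse 4. Of the 33 other vascular genes, 0 were called, and 1 without a fold threshold, with DESeq2 and with 2 RUVs factors. By adjusted p alone 1 gene passed, and 0 with library size only, 2 with the likelihood ratio test, 4 with DESeq2, 3, 5 and 3 with 1, 2 and 3 RUVs factors, 0 with each mouse left out (0 to 0) and 0 without SOR mice 1 and 4. *Slc2a1* had an adjusted p of 0.0529 with library size only. The mural median of 0.171 was 0.0541 to 0.2273 with 1 mouse left out and -0.0177 without SOR mice 1 and 4; the endothelial median of -0.0051 was -0.0604 to 0.0347 with 1 mouse left out and above 0 with TMM, RLE, library size and DESeq2 (up to 0.0167). The cause of these shifts was not tested. The counts by adjusted p alone and the removal of SOR mice 1 and 4 were added after seeing the data. Those mice were removed for their high smooth muscle and red blood cell values, so lower smooth muscle fold changes followed from the choice.

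Same-numbered mice of the 2 groups did not deviate together (r -0.099 to 0.151, beside -0.307 to 0.234 for other pairs), so the numbers were not used as pairs. With the replicate block 30 genes were called, 0 of the 33 genes passed the adjusted p, *Slc2a1* had 0.372 (adjusted p 0.135), and *Emcn* was at -0.0013.

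Of 714 values for single genes, 642 kept their direction and side of the threshold, and 49, from 14 genes, changed sign, none of them past the adjusted threshold. The rest kept their direction but crossed the adjusted threshold: 12 passed it where the main fit did not, and 11 failed it where the main fit passed. Values of *Nostrin*, described with no test, were counted by the direction and size of the log2 fold change alone. *Tie1* was at 0.0153 with TMM, 0.0167 with RLE, 0.0028 with library size and 0.0164 with DESeq2; *Abcb1a* was at 0.0093, 0.0106 and 0.0105 with TMM, RLE and DESeq2, and *Abcc9* at 0.0122, 0.0135 and 0.0129. *Abcc9* was at 0.0024 and 0.0021 with 2 and 3 RUVs factors, and *Emcn* at -0.0196, -0.0230 and -0.0254 with 1, 2 and 3. With 1 mouse left out, the log2 fold change ran from -0.1154 to 0.0402 for *Esam*, -0.0328 to 0.0259 for *Tie1*, -0.0821 to 0.0347 for *Abcb1a*, -0.1146 to 0.0224 for *Foxq1*, -0.0544 to 0.0293 for *Abcc9*, -0.0128 to 0.0875 for *Pecam1*, -0.0901 to 0.116 for *Emcn*, -0.0362 to 0.0812 for *Vtn*, -0.0692 to 0.0043 for *Slc16a1*, -0.0108 to 0.1533 for *Bsg* and -0.0029 to 0.1571 for *Ly6a*. Without SOR mice 1 and 4, *Esam* was at 0.0403, *Emcn* at -0.0046, *Bsg* at -0.0300, *Pltp* at -0.1017, *Abcc9* at 0.0011, *Vtn* at -0.0084, *Acta2* at -0.1628 and *Tagln* at -0.1228. Depth limits *Anpep*, *Sox17* and *Nostrin* most, since they had the fewest counts.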
